A study of Mus musculus with 36 samples.

Results

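Glucocorticoid-responsive genes were followed in kidneys taken from Balb/c mice 24 h after the animals had received 177Lu-octreotate, a radiolabelled peptide that binds somatostatin receptors and is retained in the kidney. The 9 genes chosen were Fkbp5, Tsc22d3, Sgk1, Klf9, Zbtb16, Ddit4, Mt1, Mt2 and Nr3c1, and every bead array probe annotated to one of them was used. Of the 25697 probes on the arrays, 9 met this rule and covered 8 of the 9 genes. Tsc22d3 had 2 probes, annotated to different RefSeq transcripts, and Zbtb16 had none and was not analysed here. The genes were picked by name, with earlier results of these data known, and not by a threshold on their values.

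Cortex and medulla were hybridised at 0, 1.3, 3.6, 14, 45 and 140 MBq of injected activity with 3 arrays each, which gave 12 groups and 36 arrays. All groups share the strain and the time point as far as the labels give them, and the labels do not say what the 0 MBq group received. Whether the 3 arrays of a group represent different mice is not stated, and the p-values therefore cover only the spread between these samples. The arrays read whole tissue pieces, in which fewer cells of a type and less RNA per cell cannot be told apart.

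Glucocorticoids enter cells and bind the receptor encoded by Nr3c1, which is held in the cytoplasm by heat shock proteins and the immunophilin made from Fkbp5, moves to the nucleus and binds paired hexamers known as glucocorticoid response elements. Fkbp5, Tsc22d3, Sgk1, Klf9, Zbtb16, Ddit4 and the metallothioneins are among its well known induced targets, and Fkbp5 closes a negative feedback loop by lowering the receptor's affinity for hormone. In the kidney the pathway is known for sodium handling and gluconeogenesis, and circulating corticosterone in mice follows a daily rhythm and rises with stress.

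Median signals of the arrays ran from 112 to 225, with the lowest of each tissue on control replicate 1, and 47.3 to 51.8% of probes were detected (detection p under 0.05). All 6 tested markers of the medulla were higher in medulla than in cortex over the treated arrays, among them the urea transporter Slc14a2, which was lower in cortex by a log2 difference of -4.33 ± 0.43 (SE). Of 6 proximal tubule markers 2 were higher in cortex, and 1, Kap, was higher in medulla by this test (log2 cortex minus medulla -1.43 ± 0.45). The 7 measured markers of the adrenal cortex, the gland that secretes corticosterone, stood apart on replicate 3 at 14 MBq of both tissues, with mean log2 signals of 10.31 in cortex and 9.46 in medulla against 4.99 to 5.70 on the other 34 arrays. Control replicate 1 carried the highest immune marker signal of the 3 controls in both tissues (summed deposited signal 28770 in cortex and 31960 in medulla, against 5808 to 17790 and 8851 to 18340 on the others).

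**Figure D1:**
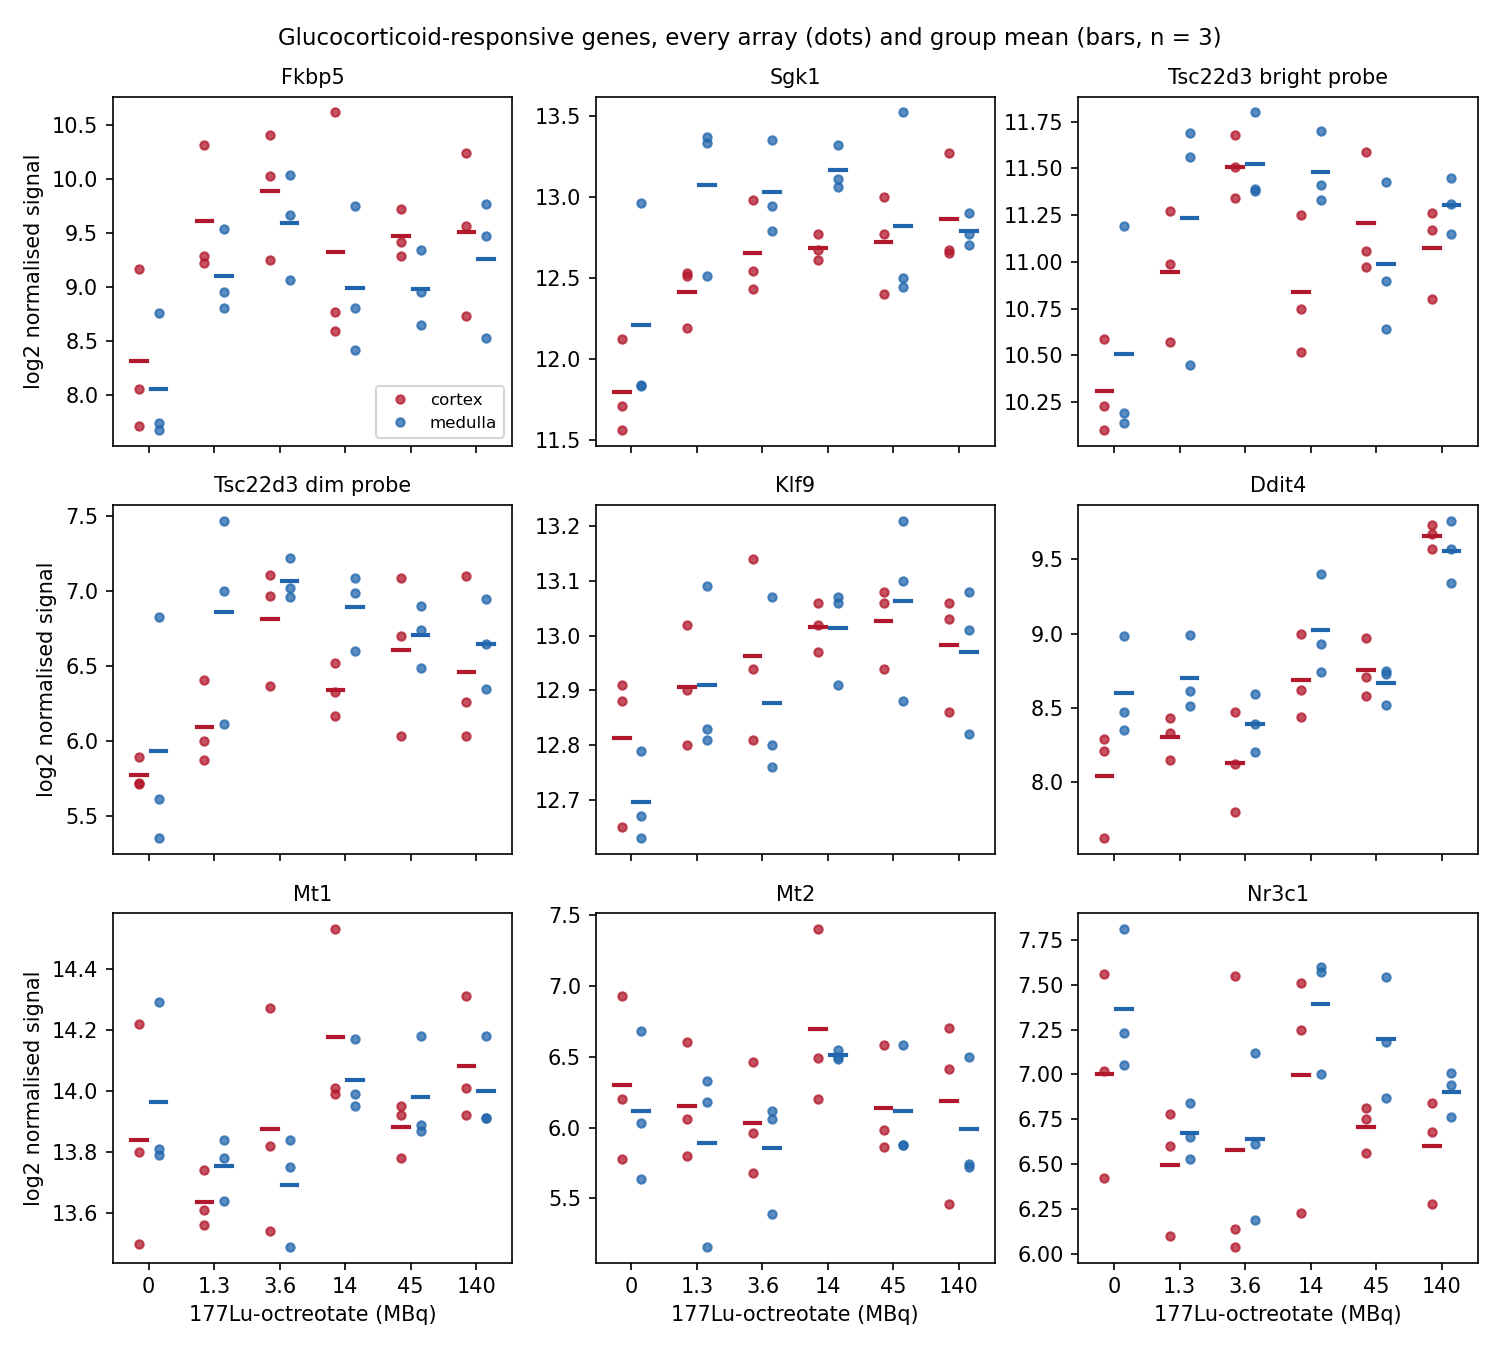
Normalised log2 signal (vertical axes, each with its own range) of the 9 probes against injected activity in MBq, for cortex (red) and medulla (blue). Dots are single arrays and bars are means of 3 arrays. Sgk1 in cortex lies above all controls at every activity, and Ddit4 is highest at 140 MBq in both tissues, with group means of 9.65 and 9.56.

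Levels are given as log2 of the background-corrected, quantile-normalised signal, and differences as log2 treated minus 0 MBq ± SE from limma. A probe was called at an adjusted p under 0.05. When the mean of the 5 activities was set against 0 MBq, 3 of the 9 probes rose in cortex (Sgk1, the brighter Tsc22d3 probe and Ddit4) and 0 fell, against 2.37% of the 14406 probes tested in cortex called in either direction and 1.26% called upward. In medulla limma called 0 of 9, against 3.9% of 14587 probes called in either direction and 2.32% called upward. At an unadjusted p under 0.05 there were 5 of 9, a threshold for which no share of all probes is given here. The median difference of the 9 probes was 0.67 in cortex and 0.27 in medulla, beside 0.02 and 0.01 over all probes tested. All 15 treated arrays of a tissue share its 3 controls, so the comparisons of single activities with 0 MBq are not independent of one another.

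Sgk1, a kinase that keeps the epithelial sodium channel at the surface of collecting duct cells, gave log2 signals of 12.12, 11.71 and 11.56 on the 3 cortex controls. The treated cortex arrays gave 12.19, 12.53 and 12.51 at 1.3 MBq, 12.43, 12.54 and 12.98 at 3.6 MBq, 12.77, 12.61 and 12.67 at 14 MBq, 12.77, 13 and 12.40 at 45 MBq and 12.65, 13.27 and 12.67 at 140 MBq. All 15 treated arrays lay above all 3 controls, which 1.08% of the probes tested in cortex did. Averaged over the 5 activities Sgk1 rose by 0.87 ± 0.17 (1.83-fold, adjusted p = 0.0163), and its differences at single activities ran from 0.61 to 1.07. At 140 MBq alone it rose by 1.07 ± 0.22 (adjusted p = 0.0343). Leaving out control replicate 2 ended the call of the mean difference (0.82, adjusted p = 0.0976). The call at 140 MBq ended without replicate 2 (adjusted p = 0.141) or 3 (0.0702) of that activity and without control replicate 2 (0.124) or 3 (0.0787).

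In medulla the Sgk1 controls were split, with replicate 1 at 12.96 and the other 2 at 11.84 and 11.83. The medulla arrays gave 12.51, 13.33 and 13.37 at 1.3 MBq, 12.94, 12.79 and 13.35 at 3.6 MBq, 13.32, 13.06 and 13.11 at 14 MBq, 12.44, 13.52 and 12.50 at 45 MBq and 12.77, 12.70 and 12.90 at 140 MBq. All 15 lay above the mean of the controls but 7 of 15 above the highest control, so the groups overlapped through that 1 array. The mean difference was 0.76 ± 0.25 and did not pass (adjusted p = 0.101). Without control replicate 1 it was 1.14 and passed (adjusted p = 0.0464).

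Among 32851 mouse RefSeq promoter windows, cut here to the 250 bases before each annotated start, 3 (0.00913%) hold the palindrome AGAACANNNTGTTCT on either strand, the two-sided form of the glucocorticoid response element, and 1 of the 6 windows of Sgk1 is one of them. It is shown because it is the one window of the 14 used for these genes with a full match. Capitals mark this palindrome, at position -189 from the start, a single hexamer (AGAACA or its complement TGTTCT) at -242 and the E-box CACGTG at -246, which overlaps that hexamer (GRCm38.p6, chr10:21993640-21993889, + strand).
Sgk1: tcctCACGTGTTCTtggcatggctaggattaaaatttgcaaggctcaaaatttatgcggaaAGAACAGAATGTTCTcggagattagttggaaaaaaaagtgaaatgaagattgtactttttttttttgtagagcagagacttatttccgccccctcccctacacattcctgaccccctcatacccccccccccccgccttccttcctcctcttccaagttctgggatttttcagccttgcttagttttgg
The single hexamer is common, present in 16.1% of all windows, and 4 of the 14 windows (3 of Sgk1 and 1 of Tsc22d3) held at least one. A match is a description of these letters and not a binding site.

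Tsc22d3 encodes GILZ, a leucine zipper protein that carries anti-inflammatory actions of glucocorticoids. Its brighter probe read 10.59, 10.23 and 10.10 on the cortex controls. Treated cortex gave 10.57, 11.27 and 10.99 at 1.3 MBq, 11.68, 11.51 and 11.34 at 3.6 MBq, 10.52, 10.75 and 11.25 at 14 MBq, 11.06, 10.97 and 11.59 at 45 MBq and 11.17, 11.26 and 10.80 at 140 MBq. The highest group was 3.6 MBq, and 13 of 15 treated arrays lay above all controls, the exceptions being 1 array each at 1.3 and 14 MBq. The mean difference was 0.81 ± 0.19 (1.75-fold, adjusted p = 0.0334), and 3.6 MBq alone gave 1.2 ± 0.24 (2.30-fold, adjusted p = 0.0399). That was 1 of 9 probes called at 3.6 MBq in cortex, against 0.396% of all probes tested.

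Both cortex calls of the brighter Tsc22d3 probe depended on single arrays. The mean difference lost its call without control replicate 1, 2 or 3 (adjusted p = 0.0791, 0.147 and 0.0905) and without replicate 3 at 1.3 MBq (0.0512). The difference at 3.6 MBq lost it without any of the 3 controls (0.0661, 0.137 and 0.0532) and without replicate 2 (0.155) or 3 (0.119) of that activity. Its sign stayed positive in each of these fits.

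Medulla controls of the brighter Tsc22d3 probe read 11.19, 10.14 and 10.19, so replicate 1 again stood above the other 2. The treated medulla arrays ranged from 10.45 to 11.80 with a median of 11.39, and 11 of 15 lay above all controls. The mean difference of 0.80 ± 0.24 did not pass (adjusted p = 0.0810). It passed without control replicate 1 (1.14, adjusted p = 0.0499) and without replicate 1 at 1.3 MBq, the lowest treated array (0.87, adjusted p = 0.0286). The dimmer Tsc22d3 probe, close to background with 34 of 36 arrays detected, went the same way, by 0.69 ± 0.23 in cortex and 0.91 ± 0.27 in medulla (adjusted p = 0.132 and 0.0683). Its medulla difference passed without control replicate 1 (1.36, adjusted p = 0.0167) and without replicate 1 at 1.3 MBq (0.98, adjusted p = 0.0342). However, the dimmer probe was detected on only 1 of the 3 medulla controls, which read 6.83, 5.35 and 5.61. The fit without control replicate 1 thus kept the controls at 5.35 and 5.61. With all arrays kept and no background correction the dimmer probe differed by 0.26 in cortex and 0.35 in medulla, against 0.69 and 0.91 with it.

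Of the 3 Tsc22d3 windows, 1 holds the hexamer, at -185 on the complementary letters TGTTCT, shown in capitals (GRCm38.p6, chrX:140600523-140600772, - strand). It is printed as the Tsc22d3 window with a match, and it is not tied to either probe.
Tsc22d3: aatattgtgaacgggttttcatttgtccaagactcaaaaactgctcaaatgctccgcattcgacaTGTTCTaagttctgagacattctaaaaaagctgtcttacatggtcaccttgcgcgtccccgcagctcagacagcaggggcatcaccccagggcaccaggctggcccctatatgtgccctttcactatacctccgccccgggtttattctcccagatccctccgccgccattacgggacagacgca

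Fkbp5 had the largest mean differences of the 9 probes in both tissues and the widest spread. Cortex controls read 9.17, 8.06 and 7.72, and treated cortex read 10.32, 9.29 and 9.23 at 1.3 MBq, 9.25, 10.41 and 10.03 at 3.6 MBq, 10.62, 8.60 and 8.77 at 14 MBq, 9.29, 9.42 and 9.73 at 45 MBq and 10.24, 9.57 and 8.74 at 140 MBq. Medulla controls read 8.76, 7.75 and 7.68, and treated medulla read 9.54, 8.96 and 8.81 at 1.3 MBq, 9.07, 10.04 and 9.67 at 3.6 MBq, 9.75, 8.42 and 8.81 at 14 MBq, 8.65, 8.96 and 9.35 at 45 MBq and 9.77, 9.48 and 8.53 at 140 MBq. In each tissue 12 of 15 treated arrays lay above all controls and all 15 above the control mean. The exceptions in cortex were 2 arrays at 14 MBq and 1 at 140 MBq.

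The Fkbp5 difference was 1.25 ± 0.41 in cortex (2.38-fold, adjusted p = 0.129) and 1.13 ± 0.31 in medulla (2.18-fold, adjusted p = 0.05, at the threshold and not under it). At single activities it ran from 1.01 to 1.58 in cortex and from 0.93 to 1.53 in medulla, and 3.6 MBq was the highest in both. The medulla difference passed without replicate 3 at 140 MBq (1.2, adjusted p = 0.0340), replicate 2 at 14 MBq (1.18, 0.0432) or replicate 1 at 3.6 MBq (1.18, 0.0436). The Fkbp5 window holds no such hexamer and 1 E-box at -169, in capitals below, a motif present in 6.02% of windows (GRCm38.p6, chr17:28486150-28486399, - strand). It is shown because Fkbp5 had the largest difference, and the absence of the letters says nothing of sites outside these 250 bases.
Fkbp5: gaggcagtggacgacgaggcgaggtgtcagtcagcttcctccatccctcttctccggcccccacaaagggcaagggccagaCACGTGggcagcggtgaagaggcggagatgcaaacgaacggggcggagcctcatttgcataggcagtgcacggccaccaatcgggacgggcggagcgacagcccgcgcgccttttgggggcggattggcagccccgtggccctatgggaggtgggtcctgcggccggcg

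**Figure D2:**
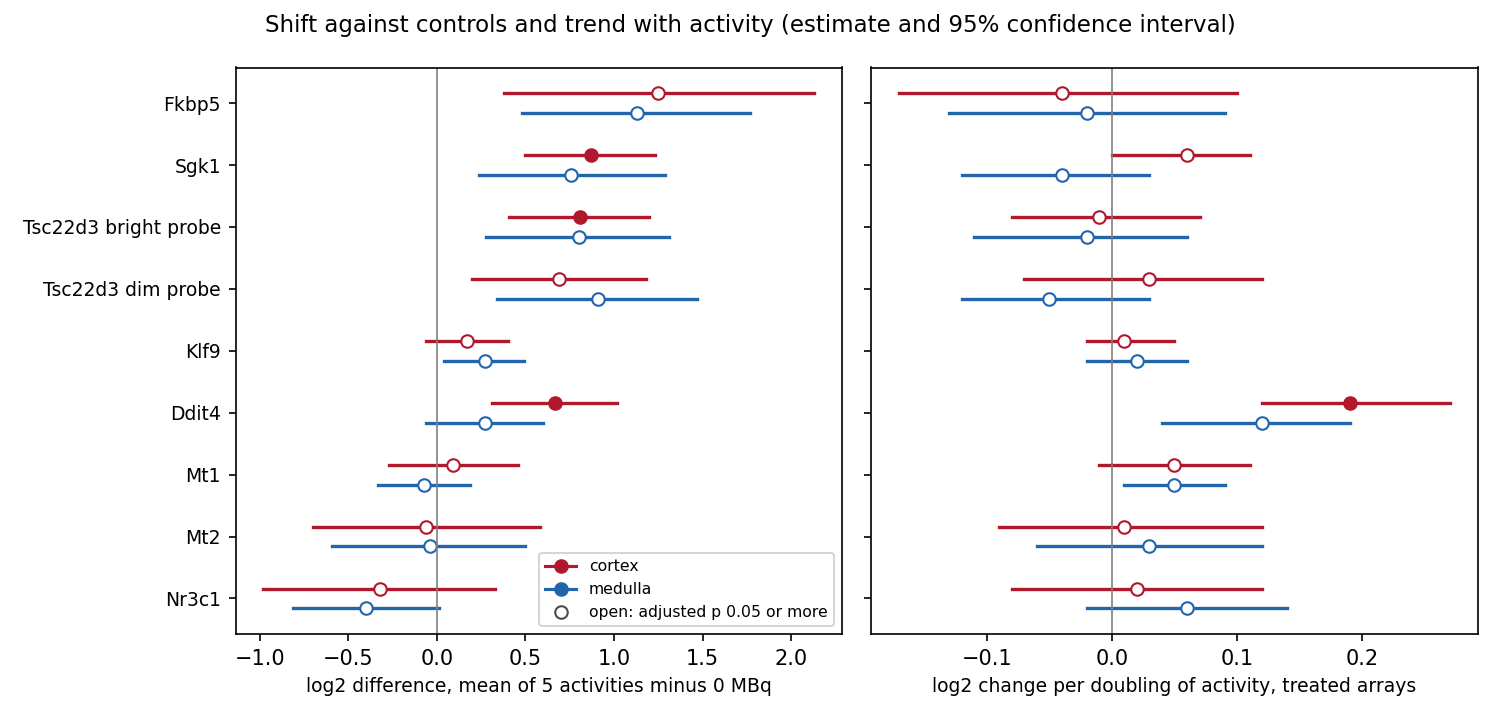
Left, log2 difference of the mean of the 5 activities from 0 MBq. Right, log2 change per doubling of activity over the 15 treated arrays of a tissue. Points are estimates, lines are 95% confidence intervals, cortex is red, medulla blue, and filled points have an adjusted p under 0.05. Fkbp5, Sgk1 and both Tsc22d3 probes lie to the right of 0 on the left and near 0 on the right, while Ddit4 has a slope of 0.19 in cortex and 0.12 in medulla.

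For Fkbp5, Sgk1, Tsc22d3 and Klf9 no slope with activity was called among the treated arrays. The slopes per doubling of activity were -0.04 ± 0.06 in cortex and -0.02 ± 0.05 in medulla for Fkbp5, 0.06 ± 0.03 and -0.04 ± 0.03 for Sgk1, and -0.01 ± 0.04 and -0.02 ± 0.04 for the brighter Tsc22d3 probe, with an adjusted p of 0.538 or more. Of the 9 probes 1 was called for slope in cortex, against 0.624% of 14103 probes called. In medulla limma called 0, against 0.69% of probes called. An unadjusted p under 0.05 was reached by 2 of 9 in each tissue, and no share of all probes is given for that threshold. The 95% interval of the Fkbp5 slope ran from -0.17 to 0.10 in cortex.

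Ddit4 was the member with a called slope, in cortex. It encodes REDD1, an inhibitor of mTORC1 signalling that is induced by glucocorticoids, by hypoxia and by DNA damage through p53. Cortex gave 8.29, 8.21 and 7.62 at 0 MBq, 8.33, 8.43 and 8.15 at 1.3 MBq, 7.80, 8.47 and 8.12 at 3.6 MBq, 9, 8.44 and 8.62 at 14 MBq, 8.58, 8.97 and 8.71 at 45 MBq and 9.67, 9.57 and 9.73 at 140 MBq. The 3 arrays at 140 MBq lay above all other cortex arrays, while those at 1.3 and 3.6 MBq overlapped the controls.

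In cortex Ddit4 rose at 140 MBq by 1.61 ± 0.21 (3.06-fold, adjusted p = 0.000761), and its slope was 0.19 ± 0.03 per doubling (adjusted p = 0.00666). With Sgk1 this made 2 of 9 probes called at 140 MBq, against 0.847% of all probes tested. The F test over the 6 cortex groups called it too (adjusted p = 0.00574), as 1 of 9 probes beside 0.569% of all. The call at 140 MBq held without any one of the 6 arrays compared (adjusted p 0.00184 to 0.00671), and the slope held without any one of the 15 (0.00429 to 0.0374). Its mean difference over the 5 activities, 0.67 ± 0.17 (adjusted p = 0.0461), lost its call without any one of 15 of the 18 arrays, with adjusted p up to 0.168 without control replicate 3. The 3 arrays that left it in place were replicates 2 and 3 at 14 MBq and replicate 1 at 3.6 MBq.

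Ddit4 in medulla read 8.35, 8.98 and 8.47 at 0 MBq, 8.51, 8.99 and 8.61 at 1.3 MBq, 8.20, 8.39 and 8.59 at 3.6 MBq, 9.40, 8.93 and 8.74 at 14 MBq, 8.73, 8.75 and 8.52 at 45 MBq and 9.76, 9.34 and 9.57 at 140 MBq. The 3 arrays at 140 MBq lay above the controls, and 1 of them lay below the highest array at 14 MBq. At 140 MBq the difference was 0.96 ± 0.20 (1.94-fold, adjusted p = 0.0266), the 1 call of 9 probes beside 1.34% of all, and the F test called Ddit4 (adjusted p = 0.0239) beside 5.15% of all. The slope of 0.12 ± 0.04 did not pass (adjusted p = 0.176). The call at 140 MBq ended without replicate 1 (adjusted p = 0.127) or 3 (0.0899) of that activity and without control replicate 1 (0.121) or 3 (0.0554), and that of the F test without replicate 1 (0.0785) or 3 (0.0653) at 140 MBq or replicate 1 (0.0510) or 2 (0.0505) at 3.6 MBq.

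The separation of single groups from the controls was counted as well. In cortex all 3 treated arrays lay above all 3 controls for 2 of the 9 probes at 1.3 MBq, 4 at 3.6 MBq, 4 at 14 MBq, 6 at 45 MBq and 4 at 140 MBq, where 10.1, 9.62, 7.39, 9.9 and 9.3% of all probes did so. In medulla the counts were 2, 3, 3, 1 and 2 of 9, beside 9.78, 12, 13.4, 9.53 and 9.46% of all probes. Sgk1 was separated at all 5 activities in cortex and at 1 in medulla, Fkbp5 at 3 and 2, and Klf9 at 2 and 4. Over all 15 treated arrays 0 of 9 probes were separated in medulla, where 1.24% of all probes were.

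At the remaining single activities limma called 0 of the 9 probes. At 1.3, 14 and 45 MBq in cortex 0.236, 1.27 and 0.784% of all probes were called. At 1.3, 3.6, 14 and 45 MBq in medulla 0.761, 1.73, 4.33 and 2.34% of all probes were called. By the looser unadjusted p under 0.05, 3, 3 and 5 of the 9 passed in cortex, in the same order of activities. In medulla 5, 5, 5 and 3 passed. The share of all probes under that unadjusted threshold is not given here, so these counts have no background.

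Klf9, a Krüppel-like transcription factor and an early target of the receptor, was not called in any comparison. Its cortex signals ran from 12.65 to 12.91 on the controls and from 12.80 to 13.14 on the treated arrays, and its medulla signals from 12.63 to 12.79 and from 12.76 to 13.21. In medulla 14 of 15 treated arrays lay above all controls. The differences were 0.17 ± 0.11 and 0.27 ± 0.11 (adjusted p = 0.484 and 0.178).

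The metallothioneins Mt1 and Mt2, small cysteine-rich proteins that bind zinc, copper and cadmium, showed no called difference at any activity. Mt1 sat between percentiles 99.26 and 99.84 of the signals of every array, with log2 values of 13.49 to 14.53. Its mean difference was 0.09 ± 0.17 in cortex (95% interval -0.27 to 0.46) and -0.07 ± 0.12 in medulla (-0.33 to 0.19). The Mt2 probe was near background, detected on 31 of 36 arrays with values of 5.16 to 7.40, and its differences were -0.06 ± 0.30 and -0.04 ± 0.26. Its highest array was replicate 1 at 14 MBq in cortex, on which Mt1 was also highest (7.40 and 14.53).

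The promoter of Mt2 carries the motif of the other regulator of this family, the metal response element bound by MTF1, searched as TGCGCNC and TGCACNC on both strands. Its window holds 3 matches, at -223, -128 and -50, in capitals below, and that of Mt1 holds 1, at -23, while 21.4% of all windows hold at least one (GRCm38.p6, chr8:94172368-94172617, + strand). The sequence is shown because neither window of the metallothioneins holds the glucocorticoid hexamer.
Mt2: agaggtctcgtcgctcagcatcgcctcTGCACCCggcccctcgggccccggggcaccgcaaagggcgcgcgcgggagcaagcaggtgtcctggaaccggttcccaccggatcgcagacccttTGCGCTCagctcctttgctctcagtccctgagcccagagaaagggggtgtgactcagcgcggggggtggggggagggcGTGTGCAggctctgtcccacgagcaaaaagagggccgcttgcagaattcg
The window of Ddit4 held 1 such match and no glucocorticoid hexamer, and that of Klf9 held none of the letters searched.

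Nr3c1, the receptor itself, had negative mean differences, none of them called. Cortex controls read 6.42, 7.02 and 7.56, and medulla controls 7.05, 7.23 and 7.81. Treated cortex ran from 6.04 to 7.55 (median 6.68) and treated medulla from 6.19 to 7.6 (median 6.94). In medulla 10 of 15 treated arrays lay below all controls and in cortex 5 of 15, and 0 lay above them in either tissue. The differences were -0.32 ± 0.31 and -0.40 ± 0.19 (adjusted p = 0.663 and 0.280), and the nearest approach to a call was -0.72 ± 0.25 at 3.6 MBq in medulla (adjusted p = 0.136).

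Cortex and medulla were compared in a fit without pairing of the arrays. The difference between the tissues in the response to treatment was called for 0 of the 9 probes and for 0 of all 15420 probes tested (limma, 36 arrays), and 0 of the 9 had an unadjusted p under 0.05. For Fkbp5 that difference was 0.13 ± 0.54 (95% interval -0.98 to 1.23) and for Sgk1 0.10 ± 0.31 (-0.53 to 0.74). Ddit4 gave the largest, 0.40 ± 0.23 higher in cortex (unadjusted p = 0.0930). This unpaired fit does not show that the responses were equal, and its intervals ignore any pairing by replicate number. With same-numbered arrays of the 2 tissues as a block 0 of the 9 were called too, and the intervals of that fit are not given here. In level between tissues, 1 of the 9 had an unadjusted p under 0.05 at 0 MBq and 2 over the treated arrays. No share of all probes is given for that threshold. At an adjusted p under 0.05 limma called 0 of 9 at 0 MBq (background 0.435%) and 0 of 9 over the treated arrays (background 22.6%). This last count changed with the pair of same-numbered cortex and medulla arrays as a block, under which 2 were called, Fkbp5 (0.38 higher in cortex, adjusted p = 0.000824) and Sgk1 (log2 cortex minus medulla -0.31, adjusted p = 0.0121). Fkbp5 was higher in cortex in 14 of 15 treated pairs, and Sgk1 was higher in medulla in 13 of 15.

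Fkbp5 varied together in same-numbered arrays of the 2 tissues. The deviation of an array from its group mean was taken for each of the 18 pairs of cortex and medulla arrays that share an activity and a replicate number, and the correlation was tested by an exact permutation of the numbers within activities (46656 orders, two-sided). For Fkbp5 the deviations had the same sign in 18 of 18 pairs, with r = 0.96 and rho = 0.96 (permutation p = 2.14e-05 for each, the smallest the orders can give, adjusted p = 0.000193 over 9 probes). Without the 2 pairs farthest from the median r was 0.95, and without the control pairs it was 0.96. Of all 15420 probes 0.0973% reached an r this high, and the median r was 0.18.

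**Figure D3:**
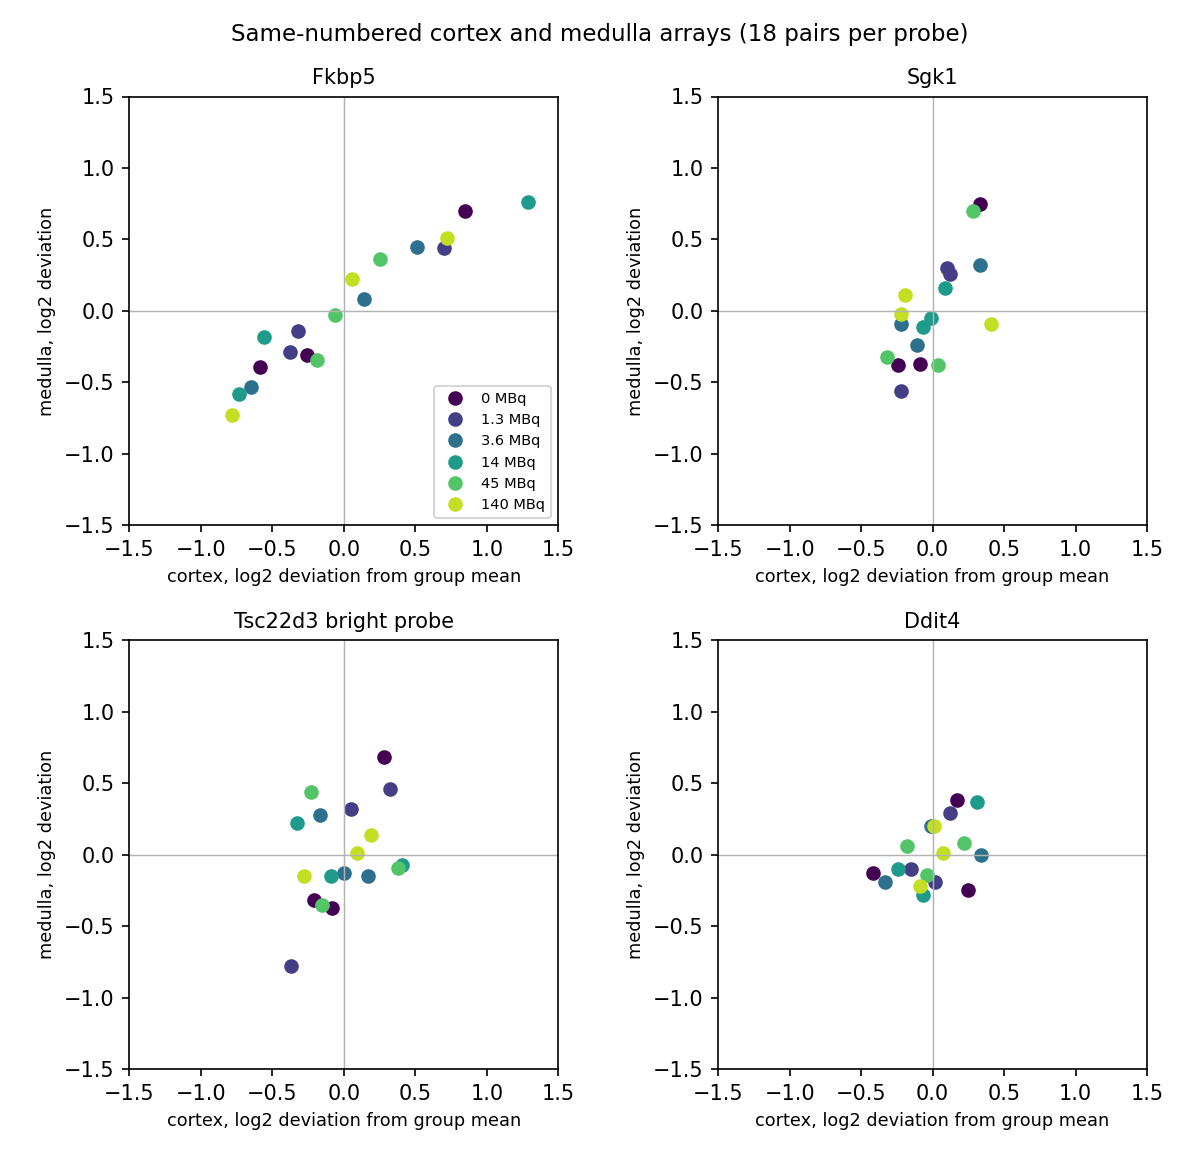
Deviation of each cortex array (horizontal) and of the same-numbered medulla array (vertical) from its group mean, in log2 units, for 4 probes, coloured by activity. Each panel holds 18 pairs. The Fkbp5 points follow a line (r = 0.96), while those of Sgk1 (0.68), the brighter Tsc22d3 probe (0.37) and Ddit4 (0.45) scatter more.

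In both tissues replicate 1 had the highest Fkbp5 of the 14 MBq group, and replicate 3 carried the adrenal markers. Without replicate 3 at 14 MBq the Fkbp5 difference was 1.31 in cortex and 1.14 in medulla. The part of adrenal tissue in the Fkbp5 values was not tested. Sgk1 also had a correlated deviation (r = 0.68, permutation p = 0.00960, adjusted p = 0.0432), which did not pass by rank (rho = 0.62, adjusted p = 0.0833), and the sign agreed in 15 of 18 pairs. Mt2 passed by rank and not by r (rho = 0.69, permutation adjusted p = 0.0390; r = 0.63, adjusted p = 0.0531). The other 6 probes had r between 0.05 and 0.54, with permutation adjusted p of 0.145 or more. Over the 36 pairs of member probes, 0 correlations of the deviations had an adjusted permutation p under 0.05.

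Members measured on an array share its hybridisation, so likeness over all 36 arrays, after each tissue's mean is subtracted, is a description only. Differences between activities, including treated from control, remain in these r values. In deviations from group means, the brighter Tsc22d3 probe and Sgk1 gave r = 0.07 over the cortex arrays and 0.92 over the medulla arrays. Tsc22d3 and Sgk1 were each other's nearest gene of all on the arrays (r = 0.77), followed for Tsc22d3 by the clock gene Per2 (0.66) and Maco1 (0.65) and for Sgk1 by Fam120b (0.68) and the clock gene Per1 (0.67). Ddit4 was nearest to the cell cycle inhibitor Cdkn1a (0.86), the BH3-only gene Bbc3 (0.84) and Gtse1 (0.83), all known p53 targets. Fkbp5 was nearest to Extl1 (0.79), the peroxisomal Pex11a (0.78) and Zc3h13 (0.77), and to no other member. Mt1 was the nearest gene to Mt2 (0.64), while Mt1 itself was nearest to the amino acid transporter Slc7a5 (0.75). Klf9 was nearest to Herpud1 (0.71), Pim3 and Lgals4 (0.70 each), and Nr3c1 to Tcp1, Nt5c2 and Spag9 (0.79 each).

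The gene lists from here on were chosen with earlier results of these data known, so counts over them are descriptions only. Of 28 other genes known to be induced by glucocorticoids, 26 were tested in each tissue. In the mean of the 5 activities 5 rose and 0 fell in cortex, and 6 rose and 0 fell in medulla, beside the shares of all probes given above, and the median of the 26 was 0.36 in cortex and 0.21 in medulla. Angptl4, an inhibitor of lipoprotein lipase, rose by 2.39 ± 0.27 in cortex (adjusted p = 0.000297) and by 2.10 ± 0.29 in medulla. The clock genes Per2 and Per1 rose by 1.27 ± 0.13 and 1.54 ± 0.21 in cortex and by 1.29 ± 0.14 and 1.40 ± 0.16 in medulla. Lpin1, a phosphatidate phosphatase, rose by 1.5 ± 0.23 and 1.29 ± 0.17, and Usp2, a deubiquitinase, by 0.89 ± 0.21 and 1.00 ± 0.11. The gluconeogenic enzyme Pck1 rose in medulla by 2.12 ± 0.53 (adjusted p = 0.0354) and gave 1.95 ± 0.53 in cortex (adjusted p = 0.0655). No member of the list had a called slope in either tissue.

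**Figure D4:**
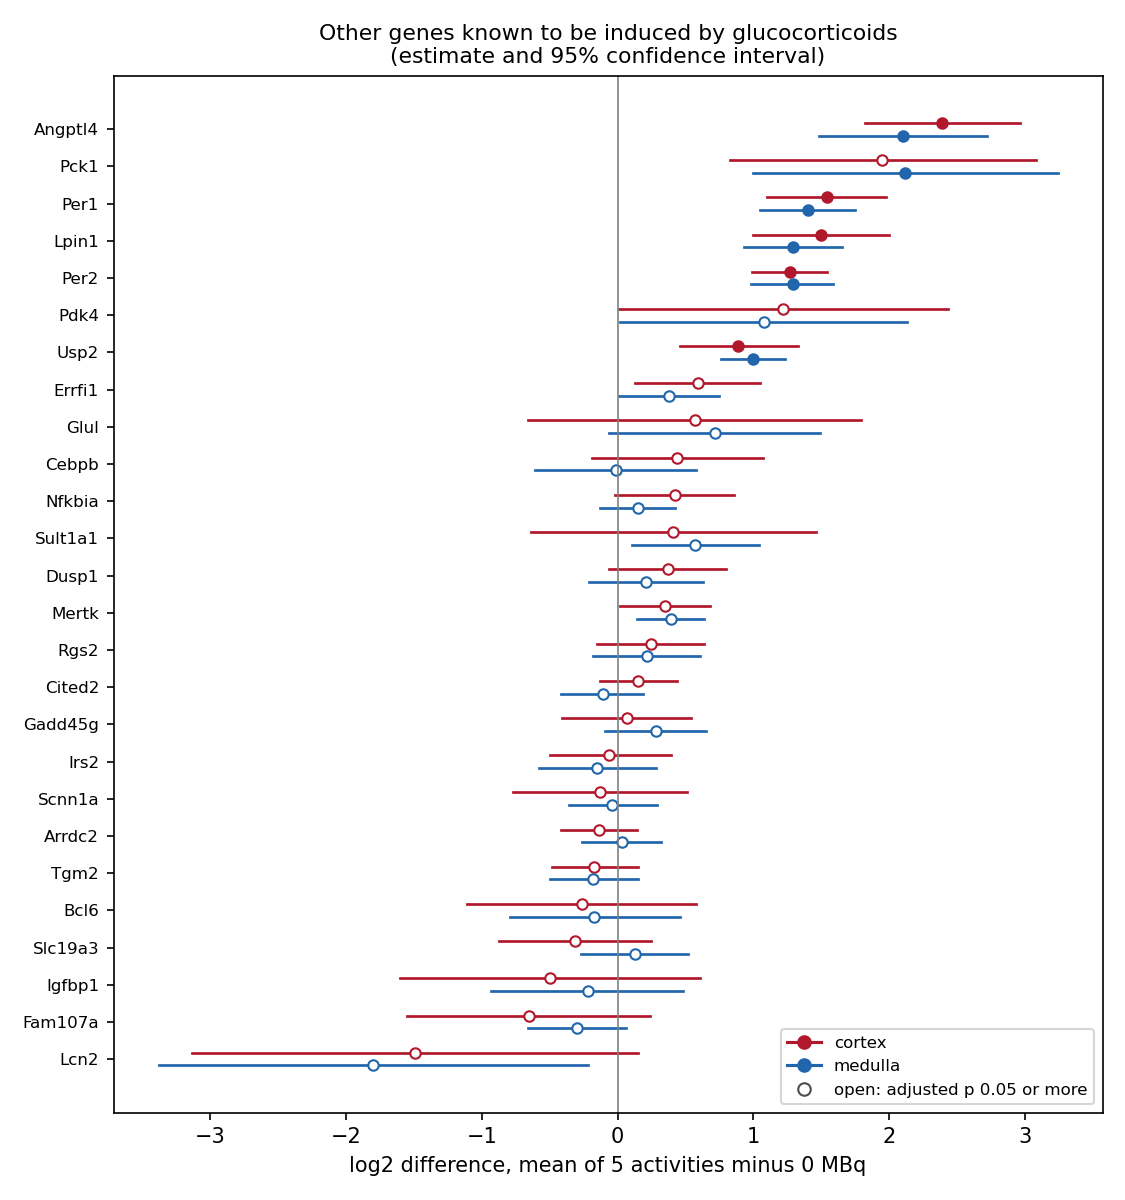
Log2 difference of the mean of the 5 activities from 0 MBq for 26 other glucocorticoid-induced genes, in cortex (red) and medulla (blue), ordered by the cortex value. Points are estimates, lines 95% confidence intervals, and filled points have an adjusted p under 0.05. Angptl4, Per1, Lpin1, Per2 and Usp2 are filled in both tissues, Pck1 in medulla, and Lcn2 lies lowest, at -1.49 in cortex and -1.80 in medulla, with open points.

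Per1 and Per2 are also clock genes. Of 13 clock genes tested 6 rose and 3 fell in cortex, and 7 rose and 2 fell in medulla, beside 2.37% and 3.9% of all probes called. Ciart was up by 1.90 ± 0.26 and 2.03 ± 0.16, and Arntl, the positive arm of the clock, was down by -2.22 ± 0.28 and -1.94 ± 0.20. The part of the clock in the values of Sgk1, Tsc22d3 and Fkbp5 was not tested. The hour of the day at which each group was killed is not given in the sources used here.

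The receptor's machinery gave few calls. Among 11 tested genes of its chaperones, coactivators and steroid handling, 1 rose in cortex and limma called 0 in medulla. The shares of all probes called were 2.37% and 3.9%. The riser was Abcb1b, a drug efflux pump that exports glucocorticoids and is also known as a p53 target in rodents, at 1.14 ± 0.28 (adjusted p = 0.0441). In medulla it gave 0.95 ± 0.28 (adjusted p = 0.0726) and had the one called slope of the list (0.22 ± 0.04, adjusted p = 0.00576). Hsd11b1, which regenerates active hormone, gave -0.90 ± 0.54 and -0.40 ± 0.20 (adjusted p = 0.434 and 0.295), and the co-chaperone Ptges3 -0.41 ± 0.37 and -0.35 ± 0.24.

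Genes downstream of single members stayed mostly uncalled. For the mean of the activities, 2.37% of all probes were called in cortex and 3.9% in medulla. Of 15 tested genes of Sgk1's sodium transport pathway limma called 0 in either tissue, and the Sgk1 substrate Ndrg1 came nearest, at -0.46 ± 0.15 in medulla (adjusted p = 0.0945). Among 13 genes of mTORC1 control, the pathway that Ddit4 inhibits, 1 rose in the mean of the activities in cortex, Txnip (0.76 ± 0.18, adjusted p = 0.0359), and limma called 0 in medulla. The slope called Ddit4l, a paralogue of Ddit4, in cortex (0.19 ± 0.02, adjusted p = 0.000135) and the p53 target Sesn2 in medulla (0.20 ± 0.03, adjusted p = 0.000426). Of the metal handling genes limma called 0 of 7 in cortex and 0 of 9 in medulla, with Hmox1 at 0.71 ± 0.28 in cortex (adjusted p = 0.206).

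Most p53 targets tested had a called positive slope with activity. In cortex they were 9 of 12, beside 0.624% of all probes called for slope, and in medulla 8 of 11, beside 0.69%, with Cdkn1a at 0.58 ± 0.04 and 0.54 ± 0.05 per doubling (adjusted p = 1.15e-06 and 6.88e-06). The slopes of Ddit4 were 0.19 ± 0.03 in cortex and 0.12 ± 0.04 in medulla, the second not called (adjusted p = 0.176). The part of the p53 response in the Ddit4 values was not tested.

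Markers of other cells moved between arrays and groups. In the mean of the 5 activities the adipocyte markers had a median difference of 1.03 over the 8 tested in cortex and 1.63 over the 7 tested in medulla with no gene called, while at 1.3 MBq in medulla Ucp1 was called (4.39 ± 0.94, adjusted p = 0.0424). The summed deposited signal of the 9 measured ran from 1303 to 12900 on the cortex controls and from 1355 to 39620 on the treated cortex arrays, and from 1256 to 3514 and from 1283 to 11190 in medulla. The immune markers S100a8 and S100a9 fell in both tissues, by a log2 difference of -2.61 ± 0.55 and -2.01 ± 0.45 in cortex and -2.41 ± 0.45 and -1.96 ± 0.42 in medulla, and Adgre1 fell in cortex (-1.81 ± 0.42). Of the proximal tubule markers, the organic anion transporter Slc22a6 rose in medulla by 0.86 ± 0.14 (adjusted p = 0.00316, called at 4 of the 5 activities) and gave 0.85 ± 0.23 in cortex (adjusted p = 0.0658), and the glucose transporter Slc5a2 gave 1.54 ± 0.57 in cortex and 1.11 ± 0.43 in medulla (adjusted p = 0.175 and 0.167). Over the 6 tested the median difference was 0.48 in cortex and 0.55 in medulla. The part of these cells in the values of Sgk1, Tsc22d3 and Fkbp5 was not tested. Without both control replicates 1, cortex kept 1 of its 3 calls, Sgk1 (1.03, adjusted p = 0.0321), with the brighter Tsc22d3 probe at 0.95 and Ddit4 at 0.79 (adjusted p = 0.0791 and 0.104), and medulla had 3, Sgk1 and both Tsc22d3 probes. Of the 3 medulla controls, the dimmer Tsc22d3 probe was detected on 1. Without replicate 3 at 14 MBq, the array with adrenal markers, all 3 cortex calls held, with adjusted p of 0.0175 for Sgk1, 0.0270 for the brighter Tsc22d3 probe and 0.0432 for Ddit4.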

How the data were processed

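Per the file headers, the deposited signals are linear intensity values of single probes, not yet normalised, each with a detection p-value. The authors also deposited a normalised set of intensity values, whose method no source used here gives, and which served as an alternative. The limma function neqc (limma 3.58.1, R 4.3.3) inferred the negative control beads from the detection p, subtracted background, quantile-normalised the 36 arrays and returned log2 values after adding an offset of 16. Every probe with a detection p under 0.05 on at least 3 arrays of a fit was tested, each by itself.

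Each tissue was fitted with lmFit and eBayes on 18 arrays in 6 groups (12 residual degrees of freedom), slopes on log2 activity on 15 treated arrays (13), and tissue contrasts on 36 arrays (24). Adjusted p-values are Benjamini-Hochberg values over all probes tested in a comparison. Pairing of cortex with medulla arrays by replicate number was checked by the correlation of their deviations from group means: the 3 control pairs gave 0.577 to 0.634, and 14 of all 18 pairs exceeded 0.1, the lowest being -0.323. The fits were also run on simulated data with known changes. Noise there was drawn independently for each array, so that run cannot show the effect of deviations shared by arrays. Promoter windows are RefSeq's (GRCm38.p6), used for 7 of the 9 genes, with none used for Nr3c1 or Zbtb16.

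The members and the 13 gene lists were chosen with earlier results of these data known. Of each list, up to 4 genes per tissue with the smallest p in the mean of the 5 activities were to be named. Usp2 and Pck1 in cortex, Angptl4 and Pck1 in medulla, Kap, Lcn2, Ucp1 at 1.3 MBq and the genes named for a slope were named after their values were seen. Figures used matplotlib 3.10.9.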

Additional observations from a re-analysis of the deposited data

How the results depend on the processing

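The sign of every called member difference held in each alternative run. Member counts changed as follows. Asking for an adjusted p below 0.01 together with a 1.5-fold size left 0 at 3.6 MBq in cortex, 1 at 140 MBq, 0 for the mean and 0 for the slope, and in medulla 0 at 140 MBq and 0 by F test. Without background correction 1 was called at 14 MBq and 1 at 45 MBq in cortex and 1 at 3.6 MBq in medulla. Without a detection filter 0 were called at 3.6 MBq and 2 for the mean in cortex, and a stricter filter gave 1 at 3.6 MBq and 1 for the mean in medulla (Fkbp5 in both, adjusted p = 0.0478 and 0.0432). The deposited normalisation, 1 probe per gene and activity ranks changed no member count. In a fit of all 36 arrays the Fkbp5 mean difference passed in cortex (adjusted p = 0.0477).

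Within each tissue the replicate number, shared across activities, was added as a block, which does not pair cortex with medulla. Cortex then had 0 calls at 3.6 MBq, 1 at 140 MBq and 1 for the mean. For the comparison of tissues the block was the pair of same-numbered arrays of an activity. Over the treated arrays it gave 2 calls, Fkbp5 (0.38 higher in cortex, adjusted p = 0.000824) and Sgk1 (-0.31, adjusted p = 0.0121). The labels do not state for any array, control or treated, that numbers pair samples. These blocks changed the member count in no other comparison. The version with the pair as a random block was not run.

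Without both control replicates 1 cortex had 0 calls at 3.6 MBq and 1 for the mean, and medulla had 1 at 3.6 MBq, 1 at 14 MBq, 0 at 140 MBq, 3 for the mean and 2 by F test. With single arrays left out the counts ranged in cortex from 0 to 3 at 3.6 MBq and for the mean and from 1 to 2 at 140 MBq. In medulla they ranged from 0 to 1 at 3.6, 14 and 140 MBq, 0 to 3 for the mean and 0 to 2 by F test, and 0 to 2 between tissues over the treated arrays. Of uncalled member values 12 of 1355 changed sign under other settings and 114 of 1959 with an array left out. The cause of these changes was not tested. The Mt2 and dimmer Tsc22d3 probes are limited by signal near background, and 3 arrays a group limit all.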
